A study of Mus musculus with 9 samples.

Results

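The genes described here form the circuit by which a macrophage senses sterols, makes an oxysterol and answers through the liver X receptors (LXR). They were chosen as 9 named genes, Srebf2, Scap, Insig1, Ch25h, Abca1, Abcg1, Nr1h2, Nr1h3 and Mylip, and a probe counted as a member when its annotated gene symbol was on that list and its detection p was under 0.05 on at least 3 of the 9 arrays. This left 7 of the 9 genes, by 12 of their 15 probes, out of 9081 named genes and 16415 probes detected in all. No probe was annotated to Nr1h2 here, and the probe of Abca1 was not above background on any array.

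Sterol levels are read in the membrane of the endoplasmic reticulum. When sterols are scarce, SCAP escorts the transcription factor precursor SREBP2 (Srebf2) to the Golgi, where it is cleaved and goes on to switch on cholesterol synthesis and uptake. When sterols are abundant, INSIG1 holds SCAP and SREBP2 back, and Insig1 is itself an SREBP target. CH25H makes 25-hydroxycholesterol, an oxysterol that binds INSIG proteins and can activate LXR, and Ch25h is a known interferon-inducible gene of macrophages. LXRα (Nr1h3) and LXRβ (Nr1h2) pair with RXR and switch on the cholesterol exporters Abca1 and Abcg1 and Mylip, whose product IDOL marks the LDL receptor for degradation.

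The arrays were 9 Illumina mouse BeadChips, which read labelled cRNA in 1 colour. They held RNA of C57Bl/6 bone marrow-derived macrophages, which had been grown from marrow in medium conditioned by L929 cells. The 3 groups, of 3 arrays each, differed in what the cells were given for 1 h, which was vehicle, TRAF-STOP 6877002 or TRAF-STOP 6860766, small molecules made to block signalling from the receptor CD40 through TRAF proteins. All 3 groups, vehicle included, were then stimulated through CD40 for 8 h with 25 ug/ml of FGK45, an activating antibody, so that no array shows resting cells. The dose of 6877002 and of 6860766 is not in the labels. These number the mice of every group 1 to 3 without saying whether groups share an animal, and if the replicates are not separate cultures the p-values measure a technical spread.

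Promoter windows of 3 genes are shown first, because Ch25h and Insig1 hold all the called differences and Srebf2 encodes the factor this circuit controls. Each runs from 250 bases before to 50 bases after the start of the gene in RefSeq (GRCm38.p6), 5′ to 3′ on the strand of the gene. Capitals mark a match to 1 of the motifs searched on both strands. The windows lie at chr19:34475099-34475398 (minus strand) for Ch25h, chr15:82147019-82147318 (plus strand) for Srebf2 and chr5:28071162-28071461 (plus strand) for Insig1.
Ch25h: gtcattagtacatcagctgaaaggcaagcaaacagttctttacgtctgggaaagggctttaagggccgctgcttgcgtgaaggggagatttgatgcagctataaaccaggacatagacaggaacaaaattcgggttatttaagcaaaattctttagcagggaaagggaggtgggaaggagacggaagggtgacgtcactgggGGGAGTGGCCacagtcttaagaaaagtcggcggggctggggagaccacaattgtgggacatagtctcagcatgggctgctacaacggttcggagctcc
Srebf2: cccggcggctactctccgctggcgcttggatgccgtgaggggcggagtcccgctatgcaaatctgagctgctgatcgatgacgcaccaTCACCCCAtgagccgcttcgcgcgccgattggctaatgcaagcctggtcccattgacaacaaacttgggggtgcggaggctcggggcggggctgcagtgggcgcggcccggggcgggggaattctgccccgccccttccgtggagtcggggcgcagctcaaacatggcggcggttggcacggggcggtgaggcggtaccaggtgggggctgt
Insig1: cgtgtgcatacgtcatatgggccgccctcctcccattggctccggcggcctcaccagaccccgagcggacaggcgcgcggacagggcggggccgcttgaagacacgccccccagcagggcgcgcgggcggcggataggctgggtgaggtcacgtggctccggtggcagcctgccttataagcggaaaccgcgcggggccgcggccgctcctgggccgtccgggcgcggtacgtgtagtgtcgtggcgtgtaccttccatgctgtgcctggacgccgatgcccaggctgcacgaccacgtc

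The Ch25h window held GGGAGTGGCC, whose first base is at position -48 from the start of the gene and which matches the NF-kB form GGGANNNNCC. That form leaves its middle bases open and no stricter form was searched, so a match is not shown to be an NF-kB site. It was found in 20.7% of all 32851 windows of the same length. In the Srebf2 window TCACCCCA, at position -162, matched TCACNCCA, a shortened sterol response element that was added to the search after the windows had been read and that 4.36% of windows held. The full form TCACNCCAC, in 1.24% of windows, was in none of the member windows. Neither was the interferon-stimulated response element GAAANNGAAA, in 3.44%, nor the LXR element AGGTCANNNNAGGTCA, in 0.0152%. Windows were at hand for 8 of the 9 genes, and apart from those of Ch25h and Srebf2 only that of Nr1h2 held a match, to the NF-kB form. No match overlapped another. A match describes the letters and shows no binding.

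The largest difference was that of Ch25h, the enzyme that hydroxylates cholesterol at carbon 25. Its log2 value was 7.01, 7.20 and 7.06 on the vehicle arrays, 7.26, 7.47 and 7.46 on the 6877002 arrays, and 6.04, 5.95 and 6.15 on the 6860766 arrays. These are the deposited values, background-corrected, normalised between arrays and taken to log2. The 3 groups did not overlap, with 6860766 lowest, vehicle between and 6877002 highest. Before correction the same probe read 202 to 229 intensity units with vehicle, 245 to 280 with 6877002 and 155 to 162 with 6860766, against array medians of 98.7 to 113, and its detection p was 0 on all 9 arrays.

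With 6860766, Ch25h was 2.05-fold lower than with vehicle (log2 difference -1.04 ± 0.12, SE, n = 3 arrays per group, limma adjusted p = 3.08e-05). In the direct comparison of the compounds it was 2.55-fold higher with 6877002 than with 6860766 (1.35 ± 0.12, adjusted p = 2.69e-07). The rise of 0.31 ± 0.12 with 6877002 over vehicle did not pass the threshold of adjusted p under 0.05 (adjusted p = 0.181, 95% interval 0.07 to 0.55). Both called differences passed in 22 of 22 alternative analyses. Without background correction they were -0.54 and 0.73, so that the size of the fold depends on the background correction. Arrays were assigned to 4 slides by the order of the sample numbers in the labels, and these slides held the groups unevenly. The slides are thus inferred and may not be the physical ones. A slide set joins slides 1 and 2, or slides 3 and 4. With slide as a block the 2.05-fold fall became -0.95 (adjusted p = 0.00028) and the difference between compounds 1.27 (adjusted p = 1.99e-06). Within slide 1, which held vehicle replicate 1 and 6860766 replicates 1 and 2, Ch25h differed by -1.01, and within slide 3, with 6877002 replicates 1 and 2 and 6860766 replicate 3, by 1.21. As these are bulk samples, less RNA per cell cannot be told apart from fewer cells that express a gene.

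**Figure D1:**
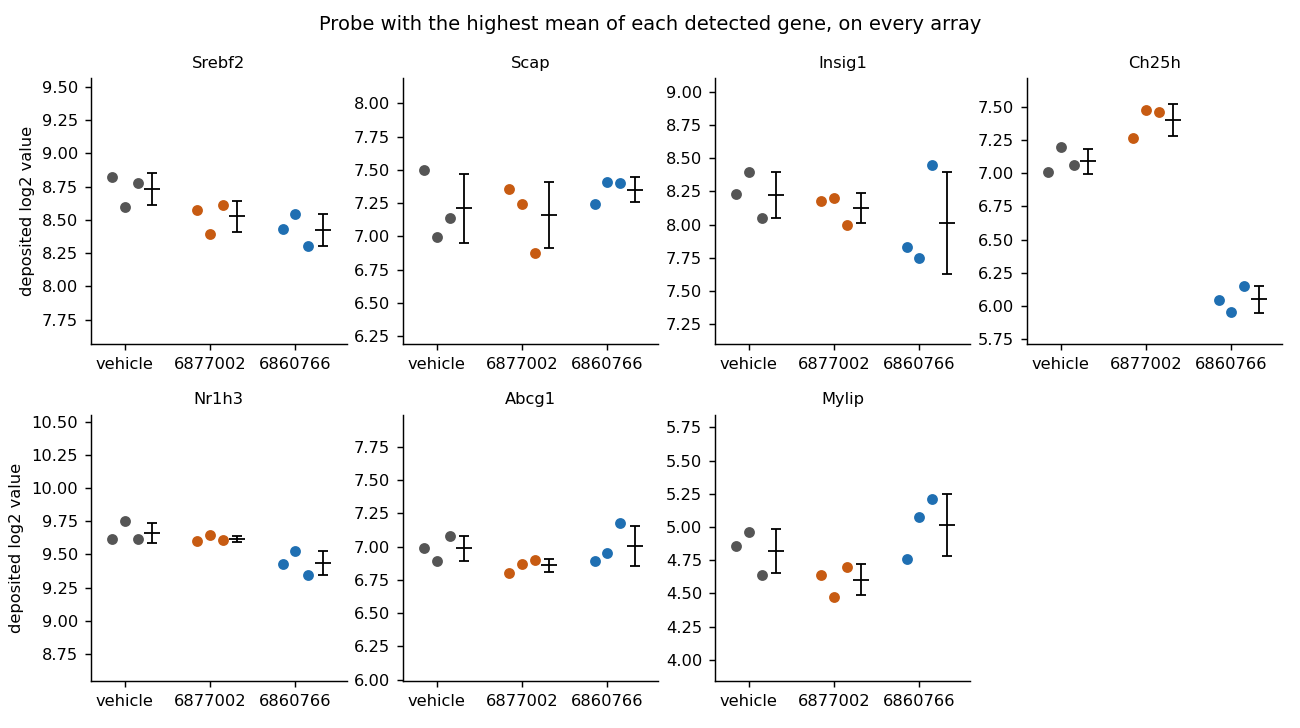
Deposited log2 value (vertical axis) on each of the 9 arrays for the probe with the highest mean of each of the 7 detected genes, by group (horizontal axis). Points are arrays and bars are the mean ± SD of 3. Every panel spans the same range of log2 units at its own level, and in the Ch25h panel the 3 groups are apart, with 6860766 at 5.95 to 6.15 and vehicle at 7.01 to 7.20.

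Insig1, the anchor that keeps SCAP in the endoplasmic reticulum, had 3 detected probes, and they did not behave alike. On ILMN_2606693 it read 8.02, 8.19 and 8.07 with vehicle, 7.74, 7.76 and 7.82 with 6877002, and 7.63, 7.71 and 7.38 with 6860766. Here both compound groups lay below all vehicle arrays. On ILMN_1245272 it read 8.19, 8.57 and 8.10 with vehicle, 8.11, 7.89 and 8.09 with 6877002, and 7.68, 8.02 and 7.59 with 6860766. On this probe the 6860766 arrays again lay below all vehicle arrays, while 6877002 overlapped vehicle. On ILMN_2895388, the probe of the highest mean, it read 8.23, 8.40 and 8.05 with vehicle, 8.18, 8.20 and 8.00 with 6877002, and 7.83, 7.75 and 8.45 with 6860766. There 6860766 replicates 1 and 2 were below every vehicle array and replicate 3 was above them all.

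Insig1 fell with 6860766 on ILMN_2606693 (-0.52 ± 0.10, SE, limma adjusted p = 0.0067) and on ILMN_1245272 (-0.52 ± 0.13, adjusted p = 0.031), each 1.43-fold to 1.44-fold lower than vehicle. On ILMN_2895388 the difference was -0.21 ± 0.14 (adjusted p = 0.62), and without 6860766 replicate 3 it was -0.43 (adjusted p = 0.026). Across the 9 arrays the first pair of probes moved together (r = 0.90), while ILMN_2895388 followed them less (r = 0.10 and 0.20), as a description. With 6877002 the differences from vehicle were -0.32 ± 0.10 (ILMN_2606693, adjusted p = 0.112), -0.26 ± 0.13 (ILMN_1245272, adjusted p = 0.334) and -0.10 ± 0.14 (ILMN_2895388, adjusted p = 0.79), none past the threshold. The first of these passed without 6860766 replicate 3 (adjusted p = 0.045) and with the 6 arrays of both groups alone (0.049). Between the compounds no Insig1 probe passed, with 0.20, 0.26 and 0.11 in the same order.

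The Insig1 call on ILMN_2606693 held in 19 of 21 alternatives and that on ILMN_1245272 in 12 of 21. The former was lost without vehicle replicate 2 (-0.47, adjusted p = 0.054). The latter was lost without vehicle replicate 1 (adjusted p = 0.050), vehicle replicate 2 (-0.38, adjusted p = 0.219), 6860766 replicate 1 (adjusted p = 0.098) or 6860766 replicate 3 (adjusted p = 0.063). With slide as a block the Insig1 differences were -0.43 (ILMN_2606693, adjusted p = 0.037), -0.36 (ILMN_1245272, adjusted p = 0.125) and -0.24 (ILMN_2895388, adjusted p = 0.372). Within slide 1 they were -0.34, -0.34 and -0.44, all of them negative.

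**Figure D2:**
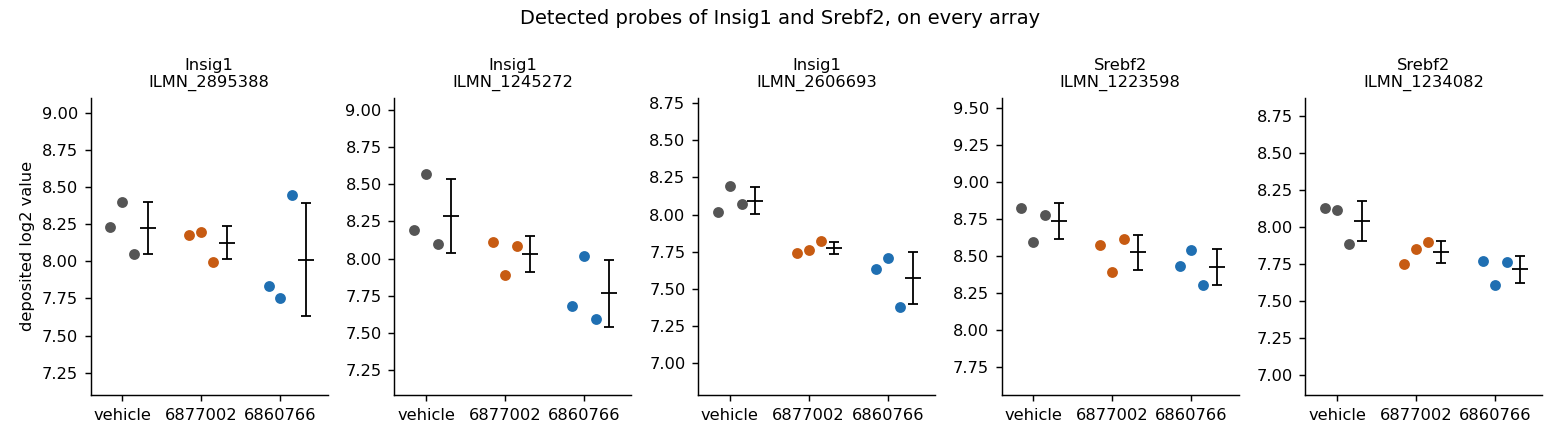
Deposited log2 value (vertical axis) on each array, by group (horizontal axis), for the 3 detected Insig1 probes and both Srebf2 probes. Points are arrays and bars are the mean ± SD of 3. The 6860766 arrays lie below the vehicle arrays on every panel but the first, Insig1 ILMN_2895388, where 6860766 replicate 3 stands at 8.45.

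Srebf2, the source of the SREBP2 precursor, was read by a pair of detected probes. ILMN_1223598 stood at 8.83, 8.60 and 8.78 with vehicle, 8.57, 8.39 and 8.61 with 6877002, and 8.43, 8.54 and 8.30 with 6860766. ILMN_1234082 stood at 8.13, 8.11 and 7.88 with vehicle, 7.75, 7.85 and 7.90 with 6877002, and 7.77, 7.61 and 7.76 with 6860766. On both, every 6860766 array was below every vehicle array, and the 6877002 arrays overlapped vehicle.

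For 6860766 the Srebf2 differences from vehicle were -0.31 ± 0.09 (adjusted p = 0.111) and -0.33 ± 0.10 (adjusted p = 0.101), and for 6877002 they were -0.21 ± 0.09 (adjusted p = 0.288) and -0.21 ± 0.10 (adjusted p = 0.316). None of the 4 passed the limma threshold in any of the alternatives run. The 95% intervals of 6860766 against vehicle reached from -0.50 to -0.11 on ILMN_1223598 and from -0.53 to -0.12 on ILMN_1234082. The compounds differed from each other by 0.10 and 0.12, with intervals that include 0. Within slide 1 the 6860766 differences were -0.34 and -0.44, and within slide 4, with 1 array of each group, the 6877002 differences were -0.16 and 0.01.

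Scap, the escort of SREBP2, had 1 probe well above background, ILMN_2764143. It read 7.50, 7.00 and 7.14 with vehicle, 7.36, 7.25 and 6.88 with 6877002, and 7.24, 7.41 and 7.40 with 6860766, and all 3 groups overlapped. The difference from vehicle was -0.05 (95% interval -0.34 to 0.24) for 6877002 and 0.14 (-0.15 to 0.43) for 6860766, and between the compounds -0.19 (-0.48 to 0.10). The other Scap probe, ILMN_1229873, had a detection p under 0.05 on all 3 arrays of 6860766 and on 0 of the other 6, with means of 4.74 for vehicle, 4.74 for 6877002 and 4.96 for 6860766. It met the detection rule only through the 6860766 arrays, so no comparison of this probe is drawn.

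Of the receptors, only Nr1h3, which encodes LXRα, could be read. Its probe ILMN_2663374 stood at 9.62, 9.75 and 9.61 with vehicle, 9.60, 9.64 and 9.61 with 6877002, and 9.43, 9.53 and 9.35 with 6860766. Each 6860766 array was below every array of the other groups. The differences were -0.22 ± 0.07 for 6860766 against vehicle (adjusted p = 0.153), -0.04 ± 0.07 for 6877002 against vehicle (adjusted p = 0.84) and 0.18 ± 0.07 between the compounds (adjusted p = 0.218), none past the limma threshold. The dimmer Nr1h3 probe, ILMN_2668472, ranged from 6.47 to 6.72 over all 9 arrays, with overlapping groups, and its 6860766 difference was -0.01 (95% interval -0.26 to 0.23). The r between both Nr1h3 probes was -0.09 over the 9 arrays.

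Abcg1, which exports cholesterol to HDL, read 6.99, 6.90 and 7.08 with vehicle, 6.80, 6.87 and 6.90 with 6877002, and 6.89, 6.95 and 7.18 with 6860766. The groups overlapped. The Abcg1 difference from vehicle was -0.13 (95% interval -0.37 to 0.11) for 6877002 and 0.02 (-0.22 to 0.26) for 6860766. Abca1, which exports cholesterol to lipid-poor apolipoprotein A-I, was not above background on any of the 9 arrays by its probe ILMN_1226851 (log2 4.31 to 4.74, detection p 0.095 to 0.84), so no fold is given. That says only that this probe did not read Abca1 above its background.

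Mylip, the gene of the ubiquitin ligase IDOL, was read near background by ILMN_2590339. It stood at 4.86, 4.96 and 4.64 with vehicle, 4.64, 4.47 and 4.70 with 6877002, and 4.76, 5.08 and 5.21 with 6860766, and was detected on 1, 0 and 2 arrays of those groups. Every 6877002 array was below every 6860766 array. With 0 detected arrays of 6877002, no fold is given for Mylip. Its other probe, ILMN_2735102, and the fourth Insig1 probe, ILMN_2620965, were below the detection rule.

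Taking the 12 probes as a group, 0 passed between 6877002 and vehicle, where 2.52% of all 16415 probes were called, 1.68% as higher and 0.841% as lower. Before adjustment the limma p was under 0.05 for 4 of the 12 probes and for 2551 of all 16415. For 6860766 against vehicle these counts were 6 of the 12 and 1946 of all. Between the compounds they were 4 of the 12, with the near-background Mylip among them, and 2592 of all. Between 6860766 and vehicle 3 of the 12 were lower and 0 higher, where 1.54% of all probes were called lower, 0.865% higher and 2.40% in either direction. These 3 probes belong to only 2 genes, Ch25h and Insig1. Between the compounds 1 of the 12, that of Ch25h, was higher with 6877002, where 3.00% were called higher and 3.95% either way. With the brightest probe per gene, 0, 1 and 1 of the 7 genes passed in these 3 comparisons, against 2.97%, 2.83% and 4.59% of named genes, and Insig1, then read by ILMN_2895388, was not called. The compound groups share the vehicle arrays, so their differences from vehicle are not independent.

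The groups did not overlap on 7 of the 12 probes for 6860766 against vehicle, 6 lower and 1 higher, where 7.55% of all probes lay apart in the lower, 7.35% in the higher and 14.9% in either direction. The 6 lower were probes of Srebf2, Insig1, Ch25h and Nr1h3, with 2 probes each for Srebf2 and Insig1. The 1 higher probe was Scap ILMN_1229873, which entered only through the 6860766 arrays, and nothing is read from it. For 6877002 against vehicle it was 2 of 12, 1 in each direction, against 10.7% of all probes apart in the higher, 11.6% in the lower and 22.2% in either direction. Between the compounds it was 5 of 12, 3 higher and 2 lower with 6877002, against 9.11% of all probes higher, 11.3% lower and 20.4% either way. The 2 lower probes were Scap ILMN_1229873 and Mylip ILMN_2590339, both detected on 0 arrays of 6877002, and nothing is read from them. The median of the 12 log2 differences was -0.11, -0.22 and 0.11 in the comparisons of 6877002 with vehicle, of 6860766 with vehicle and of the compounds, and that of all probes -0.01, 0.01 and -0.02. The medians of the 12 include these near-background Scap and Mylip probes and count some genes by several probes. They only describe the 12 probes. An exact permutation of 3 arrays against 3 cannot give a two-sided p under 0.1, so each call rests on the spread that limma shares between probes.

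**Figure D3:**
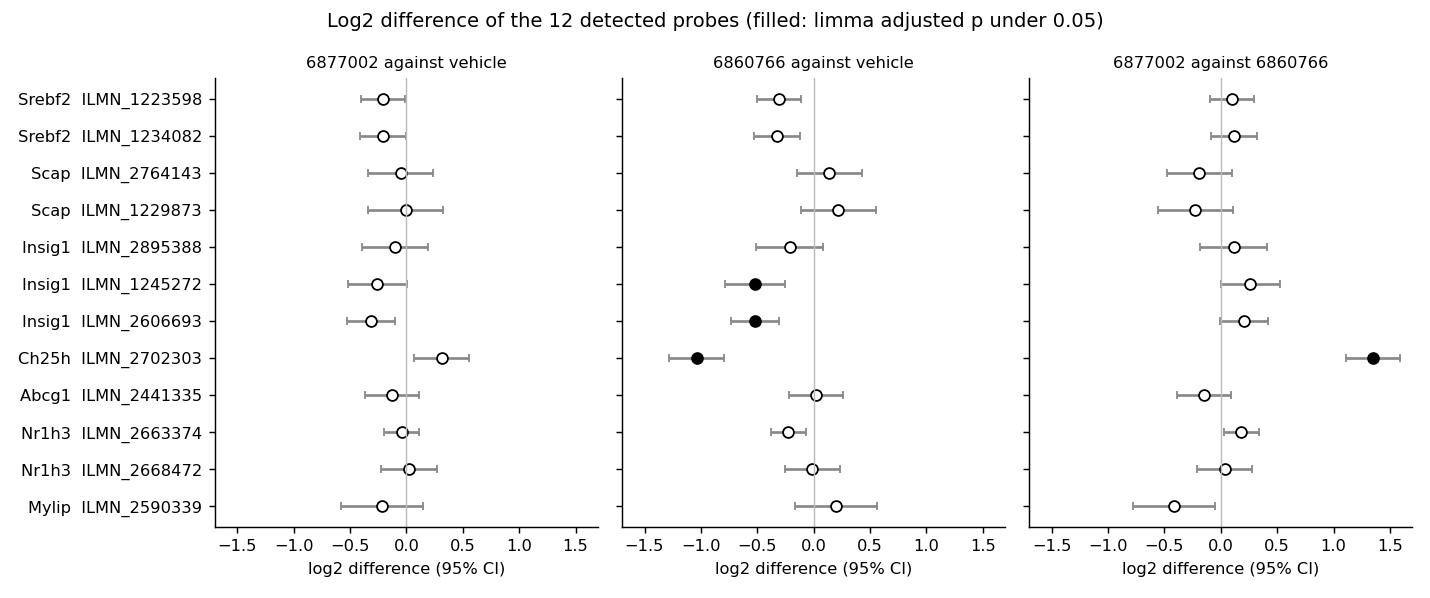
Log2 difference (horizontal axis) of the 12 detected probes in the 3 comparisons, the first group named minus the second. Points are limma estimates, lines their 95% intervals, and filled points have an adjusted p under 0.05. Filled points are Ch25h (-1.04) and Insig1 (-0.52 on ILMN_1245272 and on ILMN_2606693) for 6860766 against vehicle and Ch25h (1.35) between the compounds. Scap ILMN_1229873 and Mylip lie near background, so their points are not measured folds.

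Part of the genes that SREBP2 is known to switch on fell as well. The list held 25 genes of cholesterol synthesis and uptake and did not contain any of the 9 genes above, and 17 were tested. With 6860766, 9 of the 17 fell, 0 rose and 17 of 17 values were negative, with a median log2 difference of -0.46 against 0.01 for all named genes, of which 1.81% were called lower. Among the 9 were the sterol dehydrogenase Nsdhl (-0.82 ± 0.11, adjusted p = 0.00029), the sterol reductase Hsd17b7 (-0.73 ± 0.08, adjusted p = 4.82e-05) and Pmvk, a mevalonate pathway kinase (-0.66 ± 0.11, adjusted p = 0.0018). Leaving out any 1 array left 8 or 9 of the SREBP2 targets lower. Values not past the threshold included Stard4, a carrier of cholesterol between membranes (-0.32 ± 0.10, adjusted p = 0.125).

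With 6877002, 5 of the 17 SREBP2 targets fell and 0 rose, and 14 of the 17 values were negative and 3 positive. The median was -0.26 against -0.01 for all named genes, of which 1.06% were called lower. The 5 were Lss (-0.42 ± 0.08), Mvd (-0.42 ± 0.08), Hsd17b7 (-0.36 ± 0.08), Fdps (-0.30 ± 0.07) and Tmem97 (-0.29 ± 0.07), with limma adjusted p from 0.0032 (Lss) to 0.040 (Tmem97). This count of 5 hung on single arrays and on the fit. With slide as a block 1 of the 17 was called and the median was -0.15, with the slide set as a block 2 were, and without the variance trend 0 were. It was 8 with array weights or with only the 6 arrays of both groups. It came to 1 without 6877002 replicate 1 or 2, and to 3 without 6877002 replicate 3 or vehicle replicate 3. Dropping vehicle replicate 2 left 2, and dropping 6860766 replicate 3, which enters only through the shared spread, left 8. Between the compounds 5 of the 17 were higher with 6877002, where 3.42% of named genes were called higher and 1.17% lower, with Fdps (0.40 ± 0.07) the first by p. That count was 1 without 6877002 replicate 3, 2 without 6877002 replicate 2, 3 without 6877002 replicate 1 and 0 without the variance trend.

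In the rest of the SREBP machinery no gene was called. Of 17 tested genes, among them Insig2, the site 1 and site 2 proteases, the ubiquitin ligases of INSIG and the sterol carriers Npc1 and Npc2, 0 passed limma in any of the 3 comparisons, and the medians were -0.05, -0.01 and -0.07. Among oxysterol enzymes, oxysterol-binding proteins and Gpr183, the oxysterol receptor EBI2, 0 of 9 passed in any comparison. Of all named genes 2.97% were called with 6877002 against vehicle, 2.83% with 6860766 against vehicle and 4.59% between the compounds. At these shares, 0 calls on lists this short do not set them apart from other genes. Cyp27a1, a mitochondrial enzyme that makes an oxysterol, differed by 0.29 ± 0.13 with 6877002 (adjusted p = 0.287) and 0.16 ± 0.13 with 6860766 (adjusted p = 0.73). For Gpr183 the differences were 0.06 ± 0.14 (adjusted p = 0.88) and 0.09 ± 0.14 (adjusted p = 0.88).

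LXR targets moved in both directions. With 6877002, 2 of 15 tested rose and 2 fell, where 1.92% of named genes were called higher and 1.06% lower, and with 6860766 1 rose and 1 fell, where 1.02% were called higher and 1.81% lower. Plin2, a coat protein of lipid droplets, rose with 6877002 (0.61 ± 0.09, adjusted p = 0.00030) and with 6860766 (0.65 ± 0.09, adjusted p = 0.00021), and passed in 22 of 22 alternatives in each. Scd1, the stearoyl-CoA desaturase and also an SREBP target, fell by 0.64 with 6860766 (SE 0.08, adjusted p = 0.00014) and by 0.34 with 6877002 (SE 0.08, adjusted p = 0.025), the latter in 13 of 22 alternatives and not without vehicle replicate 1 or 2 or any 6877002 replicate, nor with slide as a block (-0.27, adjusted p = 0.218). Between the compounds Scd1 was the 1 LXR target called (0.29 ± 0.08, adjusted p = 0.048), in 9 of 22 alternatives. Apoe, an LXR target of macrophages that carries cholesterol, differed by -0.07 ± 0.10 and 0.03 ± 0.10 from vehicle with 6877002 and 6860766 (adjusted p = 0.80 and 0.95).

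The other LXR targets called with 6877002 were Mertk, a receptor for apoptotic cells (0.50 ± 0.11, adjusted p = 0.021), and Acsl3, an acyl-CoA synthetase (-0.42 ± 0.10, adjusted p = 0.023). Both were lost without vehicle replicate 1 or 3 or 6877002 replicate 1 or 2. With slide as a block Mertk differed by 0.54 (adjusted p = 0.062) and Acsl3 by -0.34 (adjusted p = 0.176), and neither passed. Neither passed with the slide set as a block. Mertk passed in 16 of 22 alternatives and Acsl3 in 14 of 22. Acsl3 also did not pass with no filter on dim probes (adjusted p = 0.057) or without the variance trend (adjusted p = 0.099). Of 12 RXRs, corepressors, coactivators and PPARs, 0 passed in any comparison. The shares of named genes called were 2.97%, 2.83% and 4.59%, so 0 of 12 does not set this list apart. Of 11 listed genes of cholesterol efflux and esterification 4 were tested, Scarb1, Nceh1, Lipa and Abca7. The listed esterifying enzymes Soat1, Soat2 and Lcat were not among them. Nceh1, a cholesteryl ester hydrolase, rose with 6877002 (0.38 ± 0.07, adjusted p = 0.0026) and with 6860766 (0.42 ± 0.07, adjusted p = 0.0014). In these comparisons 1.92% and 1.02% of named genes were called higher, and the other 3 tested genes did not pass. Without the variance trend neither Nceh1 difference passed (adjusted p = 0.070 and 0.064).

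**Figure D4:**
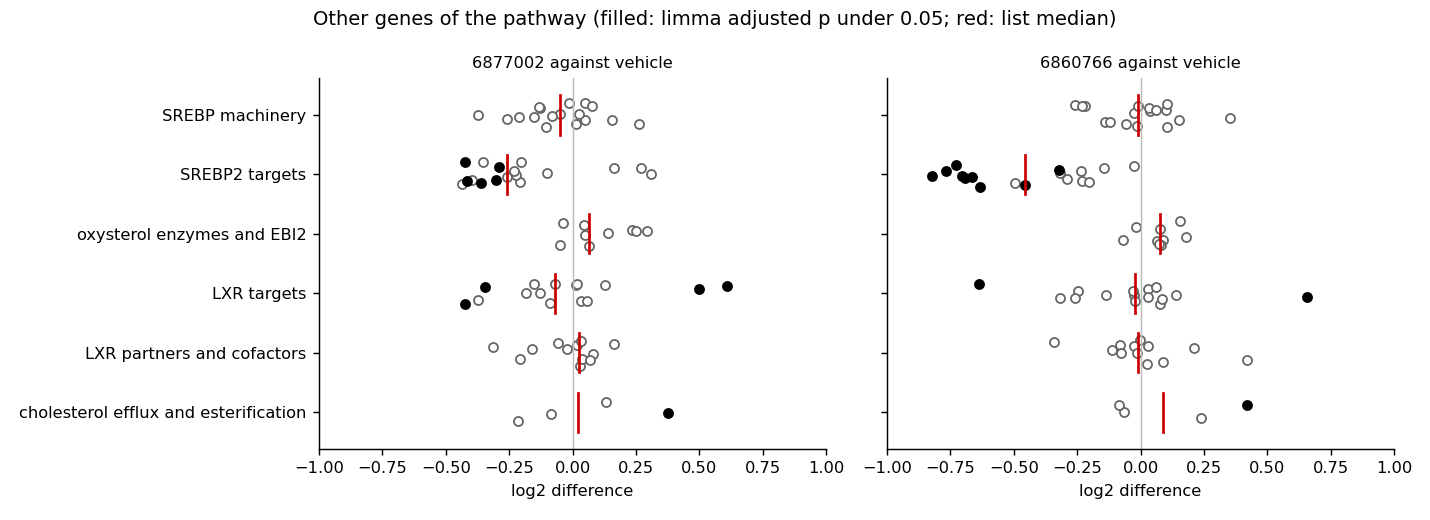
Log2 difference from vehicle (horizontal axis) of the other tested genes of the pathway, by list (vertical axis), for 6877002 and for 6860766. Each point is a gene, filled where its limma adjusted p is under 0.05, and the red line is the median of the list. The SREBP2 targets have medians of -0.26 and -0.46, while the medians of the other 5 lists lie within 0.09 of 0.

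Since Ch25h is known as an interferon-inducible gene, its pattern was set beside such genes. Of the named genes, the 3 whose values were most like those of Ch25h over the 9 arrays were Daxx (r = 0.99), Cxcl10 (r = 0.99) and Tpst1 (r = 0.99), a description of arrays that share their groups. Cxcl10, a chemokine gene induced by interferon, was lower by 1.12 on the log2 scale with 6860766 than with vehicle and differed by 0.14 with 6877002 (adjusted p = 0.350). On a list of 18 tested interferon-response genes 13 fell and 0 rose with 6860766, where 1.81% of named genes were called lower, and 10 rose and 0 fell with 6877002, where 1.92% were called higher. Without the variance trend these counts were 6 and 4. The medians were -0.42 and 0.35. The 13 became 8 when vehicle replicate 2 was left out. The 10 became 5 when 6877002 replicate 1 was left out, and 6 when vehicle replicate 1 was. Between the compounds 16 of the 18 were higher with 6877002, with a median of 0.84, where 3.42% of named genes were called higher.

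The same measure was taken for the other detected genes. Srebf2 was most like Tmem127 (r = 0.94), Slc25a45 (r = 0.93) and Trp53inp2 (r = 0.92), and the brightest Insig1 probe most like Cxcl2 (r = 0.93), Sumf2 (r = 0.90) and Actl6a (r = 0.90). Nr1h3 was most like Vps37b (r = 0.94), Sco1 (r = 0.93) and Tlr8 (r = 0.93), and Abcg1 most like Mak16 (r = 0.92), Gemin6 (r = 0.90) and Dusp5 (r = 0.88). Scap was most like Usp33 (r = 0.96), Tram1 (r = 0.96) and Otub1 (r = 0.95), and Mylip most like Wfs1 (r = 0.93), Ednrb (r = 0.93) and Ttll4 (r = 0.92).

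Markers were read to check the label of the cells. All 7 macrophage genes with a probe were detected, among them Csf1r, Adgre1 and Cd14, and 0 of 6 dendritic cell and 0 of 6 fibroblast genes were. Neutrophil genes were detected for 4 of 5, with summed levels of 1907 to 2232 with vehicle, 1984 to 2246 with 6877002 and 1863 to 2147 with 6860766 on the linear scale. Detected B and T cell markers were 1 of 3 (Cd79b) and 1 of 4 (Cd247), and 0 of 3 erythroid genes were detected. The summed level of the proliferation genes Cdk1, Pcna and Top2a was 920 to 957 with 6860766 against 780 to 806 with vehicle and 734 to 818 with 6877002. None of the 3 was called against vehicle. For 6877002 against 6860766, Top2a was called lower (-0.48, limma adjusted p = 0.020). Cdk1 (-0.26, adjusted p = 0.094) and Pcna (0.54, adjusted p = 0.154) were not called there. Top2a (0.31, adjusted p = 0.236) and Cdk1 (0.24, adjusted p = 0.165) had higher means with 6860766 than with vehicle, and Pcna a lower one (-0.15, adjusted p = 0.836). The summed level was highest in the group in which Ch25h, Insig1 and the SREBP2 targets were lowest, and its part in those results was not tested. Of the macrophage markers, Fcgr1, an interferon-inducible Fc receptor, was higher with 6877002 (0.40, adjusted p = 0.033) and lower with 6860766 (-0.55, adjusted p = 0.0030) than with vehicle.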

How the data were processed

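RNA samples of macrophages, 9 in all and 3 per group, were read on Illumina BeadChips. A deposited table gives, per the file headers, an intensity per probe and array that is not normalised and its detection p-value, and the submitters' processing notes name GenomeStudio 2011.1. The deposited series table holds log2 values, for which the submitters' processing notes name R 3.1.3 and limma 3.22.7. Running neqc here on the intensities (normexp background from the detection p-values, offset 16, quantile normalisation) gave values within 0.016 of the deposited log2 values. Correction stretches the differences of dim probes.

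The deposited log2 values of the 16415 probes with detection p under 0.05 on at least 3 of 9 arrays entered 1 limma fit (limma 3.58.1, R 4.3.3) with a coefficient per group and eBayes with trend. The 3 pairs of groups were tested with limma's moderated statistic (two-sided), Benjamini-Hochberg adjusted over all 16415 probes, with a call at adjusted p under 0.05. Differences are first minus second group with their SE. The same code was tested on simulated data. For lists, the detected probe with the highest mean over the 9 arrays stood for a gene.

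Gene symbols came from the platform annotation (34885 probes with 1 symbol, 18 with several, 10378 with none), and 0 changed when updated by gene identifier. Every detected probe of the 9 genes is described. From each list up to 6 genes past the threshold per comparison, by lowest p, could be named, of which a part is, and likeness names the 3 genes of highest Pearson r. Others named (Stard4, Cyp27a1, Gpr183, Apoe, Pmvk) were chosen after their values were seen. The genes and lists were chosen with earlier results of these data known, so no list is independent evidence of its direction. Alternatives were the background correction, scaling, filter, 1 probe per gene, array weights, slide, mouse number, the arrays in the fit, the variance trend and leaving out each array. The number of arrays limits the precision. Between 15271 and 15926 of 45281 probes were detected per array.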

Additional observations from a re-analysis of the deposited data

How the results depend on the processing

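Over 22 alternatives, the 36 pairs of a probe and a comparison gave 771 tests, of which 727 kept direction and side of the threshold, 11 lost a call, 3 gained one and 30 changed sign. No called value changed sign, and no value that changed sign was past the threshold. Each loss and gain was in Insig1. Besides those given above, ILMN_1245272 was lost with no filter on dim probes (adjusted p = 0.053), array weights (0.077), the 6 arrays of both groups alone (0.068) and no variance trend (0.176), and ILMN_2606693 with no variance trend (0.059).

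The values that changed sign were of Insig1, Scap, Nr1h3 and Abcg1. With slide as a block 6877002 against vehicle gave 0.13 (Scap ILMN_1229873), 0.018 (Insig1 ILMN_1245272), 0.053 (Nr1h3 ILMN_2663374) and -0.049 (Nr1h3 ILMN_2668472), 6860766 against vehicle -0.17 (Scap ILMN_2764143) and 0.0074 (Nr1h3 ILMN_2668472), and the compounds -0.067 (Insig1 ILMN_2895388) and -0.057 (Nr1h3 ILMN_2668472). With the slide set as a block the same probes gave 0.066 (Scap), 0.027 and -0.058 (Nr1h3), and between compounds -0.018 (Insig1) and -0.047 (Nr1h3). Scap ILMN_1229873 was 0.020 with slide as a random block and 0.014 with median scaling, and Abcg1 -0.019 with array weights. Leaving out 1 array gave, for 6877002 against vehicle, -0.056 to 0.081 (Scap ILMN_1229873), -0.16 to 0.092 (Scap ILMN_2764143), -0.064 to 0.0036 (Nr1h3 ILMN_2663374) and -0.014 to 0.075 (Nr1h3 ILMN_2668472). For 6860766 against vehicle it gave -0.066 to 0.077 (Abcg1) and -0.075 to 0.053 (Nr1h3 ILMN_2668472), and between compounds -0.030 to 0.097 (Nr1h3 ILMN_2668472) and -0.017 to 0.33 (Insig1 ILMN_2895388). The cause was not tested.

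Over all probes, 414, 394 and 649 were called in the comparisons of 6877002 with vehicle, 6860766 with vehicle and the compounds. Counts beyond 1.5 times these were 757 and 1420 with array weights (6877002 against vehicle and the compounds), 229 with the slide set as a block (6877002 against vehicle), 756 and 239 with the 6 arrays of both groups (each compound against vehicle) and 159, 72 and 375 without the variance trend. Leaving out 1 array gave 192 to 769, 174 to 568 and 392 to 1326, 769 and 1326 without 6860766 replicate 3.

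Same-numbered mice did not deviate together (r from -0.14 to 0.15, over 0.1 in 1 of 9 pairs), and 2 of 9 arrays matched their own number best. With mouse number as a replicate block the counts were 406 (6877002 against vehicle), 395 (6860766 against vehicle) and 605 (6877002 against 6860766), and no call among the 12 probes changed.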
